A study of Mus musculus with 12 samples.

Results

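The translation initiation factors of mouse 3T3 cells were described from 42 genes. They were all genes on the array whose symbol starts with Eif1 to Eif6, leaving out the Eif2ak kinases and the Eif4ebp binding proteins, which regulate the factors. The 42 genes were read by 76 of the array's 38784 probes, and they belong to the 16969 genes named by at least 1 probe. RNA of 3T3 cells, an established mouse fibroblast line, was measured on 12 arrays of 2 colours, 3 each for an untreated control and for Shld1 at 10 nM, 100 nM and 1 µM. Shld1 is a synthetic cell-permeable ligand that stabilises proteins fused to a destabilising domain made from a mutant of FKBP12, a small prolyl isomerase. The labels name neither a fusion protein in these cells nor a time of treatment. Cy5 marked the 3T3 RNA on every array and Cy3 a common mouse reference RNA from Stratagene, and dyes were never swapped. Nothing in the labels says that the 3 samples of a group came from separate cultures, so the spread behind each p-value may be technical.

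Initiation factors bring the ribosome to the start codon of a messenger RNA. eIF2 carries the initiator tRNA as a GTP complex and is recharged by the exchange factor eIF2B. The factors eIF1, eIF1A, eIF5 and the many-subunit eIF3 sit on the small ribosomal subunit and guide scanning. The cap-binding protein eIF4E, the scaffold eIF4G and the helicase eIF4A load the mRNA. Much of the known control of initiation acts on the proteins, through phosphorylation of eIF2 and through binding proteins of eIF4E that mTOR inactivates.

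Each value is a log2 ratio of sample over reference RNA, centred on the median of its array. A gene's probes measured on all 12 arrays were averaged, and a gene without one took 1 probe with the most values. A value of 0 means that a gene's ratio equals the median ratio of its array, so "above the reference" here means above that median. The values rank how far a gene departs from the reference and do not rank amounts of mRNA between genes. The direction was taken from the dyes, and the log base of 2 is an assumption. The array medians before centring lay between -0.20 and -0.10, and each array lacked a value for 13.3% to 21.0% of the probes. The labelled cell type was checked on marker genes in the control group. Of 13 fibroblast markers, 12 were above the reference, with a median of 1.56, and 10 were called higher and 1 lower, at -0.51. Of 6 measured leukocyte and macrophage markers 0 were above it, with a median of -1.23, and 5 were called lower. Of the other lists, 3 of 5 epithelial markers were called lower and 0 higher, 2 of 4 adipocyte markers were called higher and 2 lower, and 1 of 3 measured muscle and 1 of 2 measured endothelial markers were called higher. A further 7 symbols of the initiation factor families had no named probe and were not analysed here, among them the start codon factor Eif1, the eIF2 alpha subunit Eif2s1 and the main scaffold Eif4g1.

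No change of an initiation factor transcript was detected at any dose of Shld1. In limma's test over all 14523 genes measured, with Benjamini-Hochberg adjustment at 0.05, 0 of 42 factors were called at 10 nM, 100 nM or 1 µM, and 0% of all genes were. The same count of 0 factors, with 0% of all genes, was found for the mean of the doses, for the trend over dose rank and for the F test over the doses. At an unadjusted p under 0.05, 0 of 42 factors passed in any of these tests. With 1 array left out, that unadjusted count rose to 2 at 100 nM without control replicate 1 (Eif2s3x and Eif3i), to 1 at 100 nM without control replicate 3 (Eif5a2) and to 1 at 10 nM without 10 nM replicate 3 (Eif2s2). The share of all genes passing that unadjusted threshold was 4.26% at 1 µM, 3.02% at 100 nM and 2.48% at 10 nM, and it was 3% for the mean of the doses, 3.56% for the trend and 2.91% for the F test. Over the processing alternatives, the smallest adjusted p of any factor at a dose was 0.773.

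The measured changes lay close to 0. At 1 µM the median change over the 42 factors was 0.00, with 22 above 0 and 20 below, beside a median of -0.02 over all genes. At 100 nM the median was 0.06, with 26 above 0, and at 10 nM it was -0.05, with 14 above 0. Over all 14523 genes the medians at these 2 doses were 0.02 and -0.01, with 7830 and 7034 genes above 0. The median size of a change, sign ignored, was 0.08, 0.11 and 0.07 at 1 µM, 100 nM and 10 nM, beside 0.15, 0.13 and 0.13 over all genes. All 3 comparisons share the control arrays.

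How large a change the arrays leave room for can be read from the 95% intervals. At 1 µM the interval lay within a 2-fold change either way for 40 of 42 factors, 95.2%, beside 83.0% of all genes, and within 1.5-fold for 33 of 42, 78.6%, beside 42.7% of all genes. The interval of 41 of 42 factors lay within 2-fold at 100 nM and at 10 nM. Factors whose interval passed 2-fold were the Y-linked Eif2s3y at 1 µM and 10 nM and Eif5a2, a paralog of eIF5A, at 1 µM and 100 nM. Between arrays of a group, the median SD of a factor was 0.173, beside 0.265 over all genes, and 33 of 42 lay below that all-gene median. Averaging probes can narrow SDs and intervals, and the 42 factors had 76 probes, beside 26173 probes for all 16969 genes. What part of the difference this makes was not tested. The lowest SD was that of Eif4h, which stimulates the eIF4A helicase, at 0.084, and the highest that of Eif2s3y at 0.419.

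**Figure D1:**
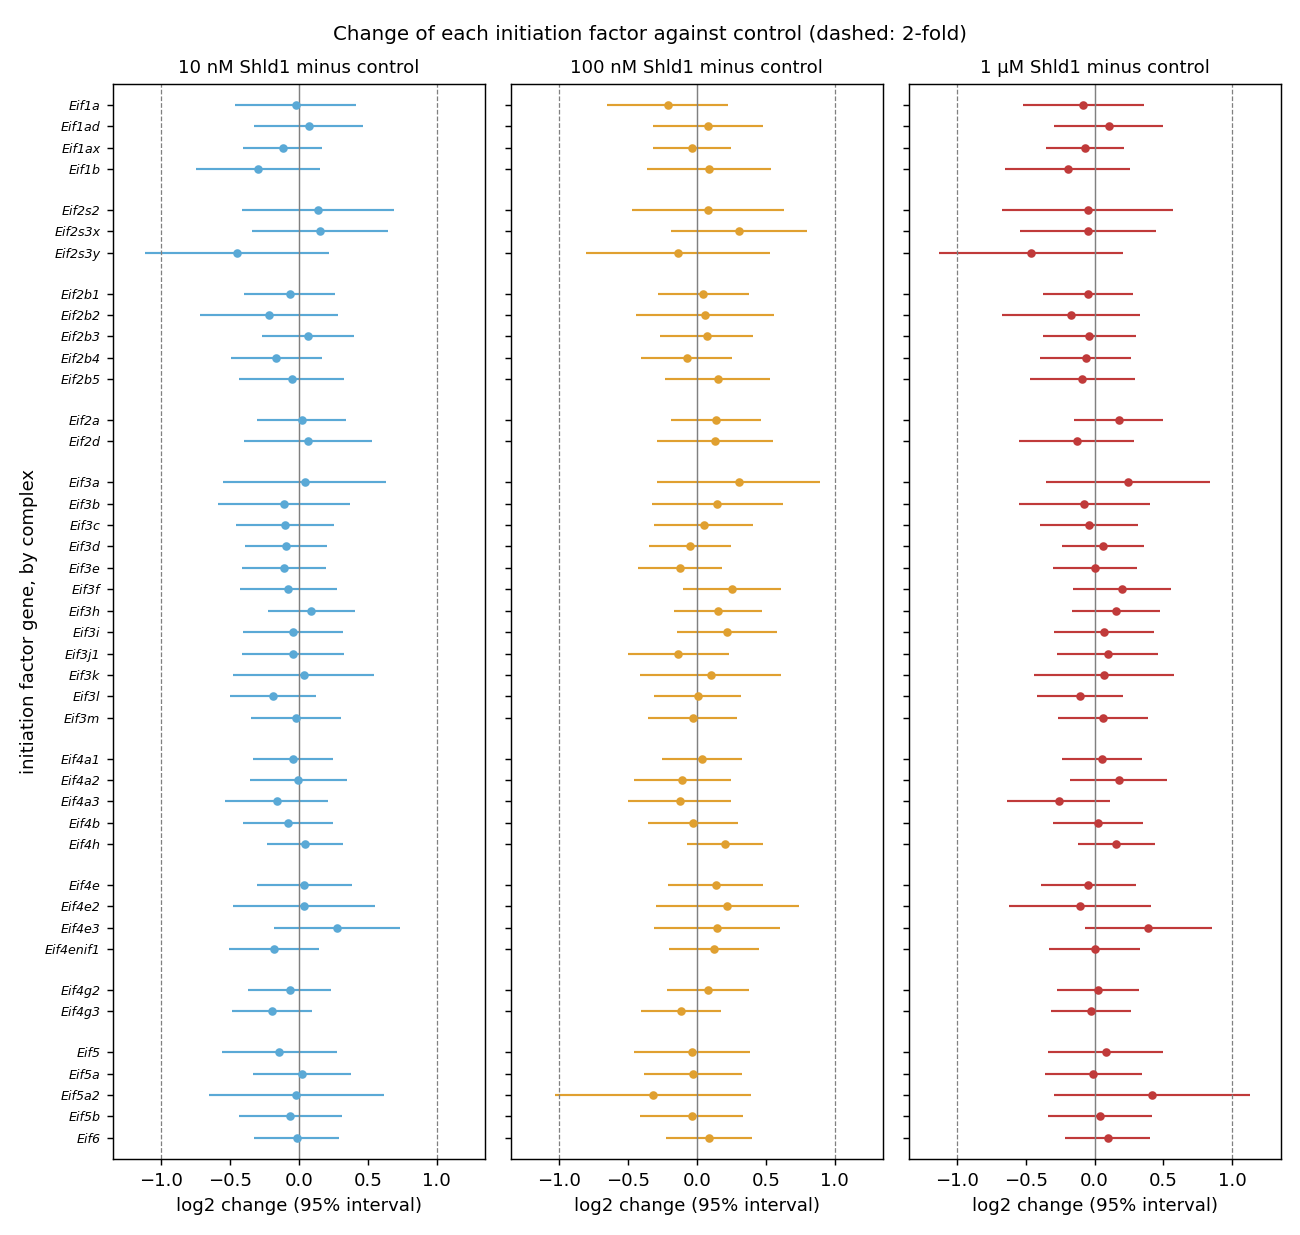
Change of each of the 42 initiation factor genes at 10 nM, 100 nM and 1 µM Shld1 against control, on the log2 scale (x axis), with the genes grouped by complex (y axis). Points are limma estimates over 3 arrays a group, lines their 95% intervals, and dashed lines mark 2-fold. All intervals include 0, and 40 of 42 at 1 µM lie between the dashed lines.

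eIF2 binds the initiator tRNA through its gamma subunit, which mice encode on both sex chromosomes. The Y-linked copy, Eif2s3y, read 0.62, 0.77 and 0.18 on the control arrays, 0.10, 0.31 and -0.20 at 10 nM, 0.38, -0.23 and 1.01 at 100 nM and 0.45, -0.35 and 0.08 at 1 µM. The groups overlapped at every dose, and its value, read from 1 probe, was the most variable of the gene values of the factors. Its change was -0.46 (SE 0.31) at 1 µM and -0.45 (SE 0.31) at 10 nM, the lowest among the factors at both doses, with an adjusted p of 0.999 and 1. The X-linked copy, Eif2s3x, read 0.77, 0.27 and 0.11 in control and 0.75, 0.73 and 0.12 at 10 nM, an overlapping change of 0.15 (SE 0.22, adjusted p = 1 by limma). The beta subunit Eif2s2 had 2 probes with values on 11 arrays each, and only 1 of them was used. The probe used changed by -0.05 at 1 µM and the other by 0.08. In control they stood at -0.16 and 0.37 against the reference. The unused probe had an adjusted p of 0.0144 there in a limma fit of single probes. Of the 5 subunits of the exchange factor eIF2B, 0 were above control at 1 µM, with a median of -0.06, beside 6823 of all 14523 genes. At 100 nM, 4 of 5 were above it, with a median of 0.06, beside 7830 of all genes. The changes at 1 µM ran from -0.17 to -0.04, with SEs from 0.15 to 0.23. The 2 probes of Eif2b4 moved in opposite directions at 1 µM, by 0.30 and -0.43.

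eIF3, the largest initiation factor, holds the small subunit apart from the large one and recruits mRNA. Of its 12 measured subunit genes, 9 were above control at 1 µM, 8 at 100 nM and 3 at 10 nM, with medians of 0.06, 0.08 and -0.06. Of all 14523 genes, 6823, 7830 and 7034 were above control at these doses. Eif3f, a subunit with the fold of the MPN domain, read -0.27, -0.44 and -0.52 in control, -0.49, -0.47 and -0.50 at 10 nM, -0.29, -0.20 and 0.02 at 100 nM and 0.05, -0.17 and -0.50 at 1 µM. The 100 nM arrays were mostly higher than control but overlapped it, and the change of 0.25 (SE 0.16) had an adjusted p of 1. Eif3f also had the smallest unadjusted p of the factors in the trend over dose rank, 0.0936. Eif3h, another subunit with that fold, read -0.13, -0.30 and -0.07 in control and 0.04, -0.05 and -0.01 at 1 µM. These groups did not overlap, but the change was only 0.16 (SE 0.15, adjusted p = 0.999).

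Few factors had a dose group that lay wholly apart from control. At 1 µM, 2 of 40 factors with a full set of values had groups apart, Eif3h and Eif4a2, both higher, beside 7.57% of all genes. At 100 nM there were 0 of 41, beside 7.33%, and at 10 nM 1 of 41, Eif4g3, lower, beside 6.39%.

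The helicase eIF4A unwinds the 5′ leader of the mRNA and is helped by eIF4B and eIF4H. Eif4a2, a paralog of the main helicase gene Eif4a1, read -0.00, -0.07 and -0.06 in control and 0.17, 0.18 and 0.05 at 1 µM, a change of 0.18 (SE 0.16, adjusted p = 0.999). Eif4a3, the paralog that sits in the exon junction complex, read 0.46, 0.16 and 0.13 in control and 0.17, -0.14 and -0.06 at 1 µM. It was lower on most of the 1 µM arrays, with overlap, and its change of -0.26 (SE 0.17) had an adjusted p of 0.999. Eif4h read 0.26, -0.01 and 0.09 in control, 0.08, 0.18 and 0.21 at 10 nM, 0.26, 0.35 and 0.34 at 100 nM and 0.29, 0.31 and 0.22 at 1 µM. It had the smallest p of the factors at 100 nM, for a change of 0.20 (SE 0.13, unadjusted p = 0.136, adjusted p = 1).

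eIF4E binds the cap and eIF4G bridges it to eIF3. Eif4e3, a cap-binding paralog, read -0.50, 0.07 and 0.05 in control, 0.20, 0.24 and 0.01 at 10 nM, -0.10, 0.27 and -0.10 at 100 nM and 0.64, 0.11 and 0.05 at 1 µM. A single low control array and a single high 1 µM array carried most of the difference, and the groups overlapped. It had the smallest p of the factors at 1 µM, for a change of 0.39 (SE 0.21, unadjusted p = 0.0876, adjusted p = 0.999), and at 10 nM it changed by 0.27 (SE 0.21). Its 2 probes gave changes of 0.60 and 0.18 at 1 µM. In a limma fit of single probes, the former had an unadjusted p of 0.031 and an adjusted p of 0.999 over all probes. It was the only one of 74 tested factor probes under an unadjusted 0.05 at 1 µM, and 0 were at the other doses. By the mean of its 3 probes, the cap-binding gene Eif4e itself stayed within a 95% interval of 1.5-fold at every dose. Fitted singly, each of these probes had an interval past 1.5-fold at some dose. Such intervals were -0.86 to 0.45 for 1 probe at 1 µM, -0.23 to 0.70 for another at 100 nM and -0.26 to 0.72 for the last at 10 nM. Eif4g3, a scaffold paralog, read -0.39, -0.41 and -0.37 in control and -0.66, -0.57 and -0.53 at 10 nM. Those groups lay apart, and the change was -0.19 (SE 0.13, adjusted p = 1).

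Among the factors that act late in initiation or in elongation, Eif5a2 had the largest changes and the fewest values. It read 0.94, 1.10 and -0.01 in control, 0.59, 0.41 and 0.97 at 10 nM, 0.49 and 0.23 at 100 nM, and 1.19 and 0.99 at 1 µM, with 1 array blank at both of these doses. The groups overlapped. Its changes of 0.42 (SE 0.32) at 1 µM and -0.32 (SE 0.32) at 100 nM had opposite signs and adjusted p of 0.999 and 1. Eif1a, one of the genes of the scanning factor eIF1A, read 0.44, 0.81 and 0.30 in control and 0.34, 0.17 and 0.40 at 100 nM, an overlapping change of -0.21 (SE 0.20, adjusted p = 1).

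Against the reference RNA, Eif5a, Eif4g2, Eif3i and Eif1ax stood highest by the mean of their probes and Eif3d lowest. In the control group 12 of 42 factors were higher than the reference, 28.6%, beside 26.5% of all genes, and 4 were lower, 9.52%, beside 19.6% of all genes. Over the 4 groups together 18 were higher, 42.9%, beside 38.6%, and 8 were lower, 19%, beside 34.4%. The median over the factors was 0.09 in the control group, beside 0.03 over all genes. Their departures were smaller than those of most genes, with a median size, sign ignored, of 0.23 in control beside 0.38 over all genes. Of 39 factors with a value on all 12 arrays, 9 were above 0 on every array, beside 25.7% of all genes, and 3 were below 0 on every array, beside 18.8%. Because 0 is set by the centring, the split moves with it. Without centring, which shifts the median of all genes from 0.03 to -0.12 in control, 8 factors were higher and 8 lower, and the share of higher calls among all called genes was 40.5% instead of 57.5%. With control replicate 2 left out, 8 factors were called higher and 2 lower. Calls over all genes also fell there, from 3850 higher and 2845 lower to 2979 and 1961. Eif1ax, Eif3d, Eif3i, Eif4a1, Eif4g2 and Eif5a, 6 of the 16 called in control, were called under every one of the 26 alternatives, and the other 10 lost the call under at least 1. Calls lost without control replicate 1 were those of Eif2a, Eif2b2, Eif3j1, Eif3l and Eif5a2. Without control replicate 2 they were those of Eif1a, Eif2a, Eif3f, Eif3l, Eif5 and Eif5a2, and without control replicate 3 those of Eif2a, Eif3f, Eif3l and Eif5.

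**Figure D2:**
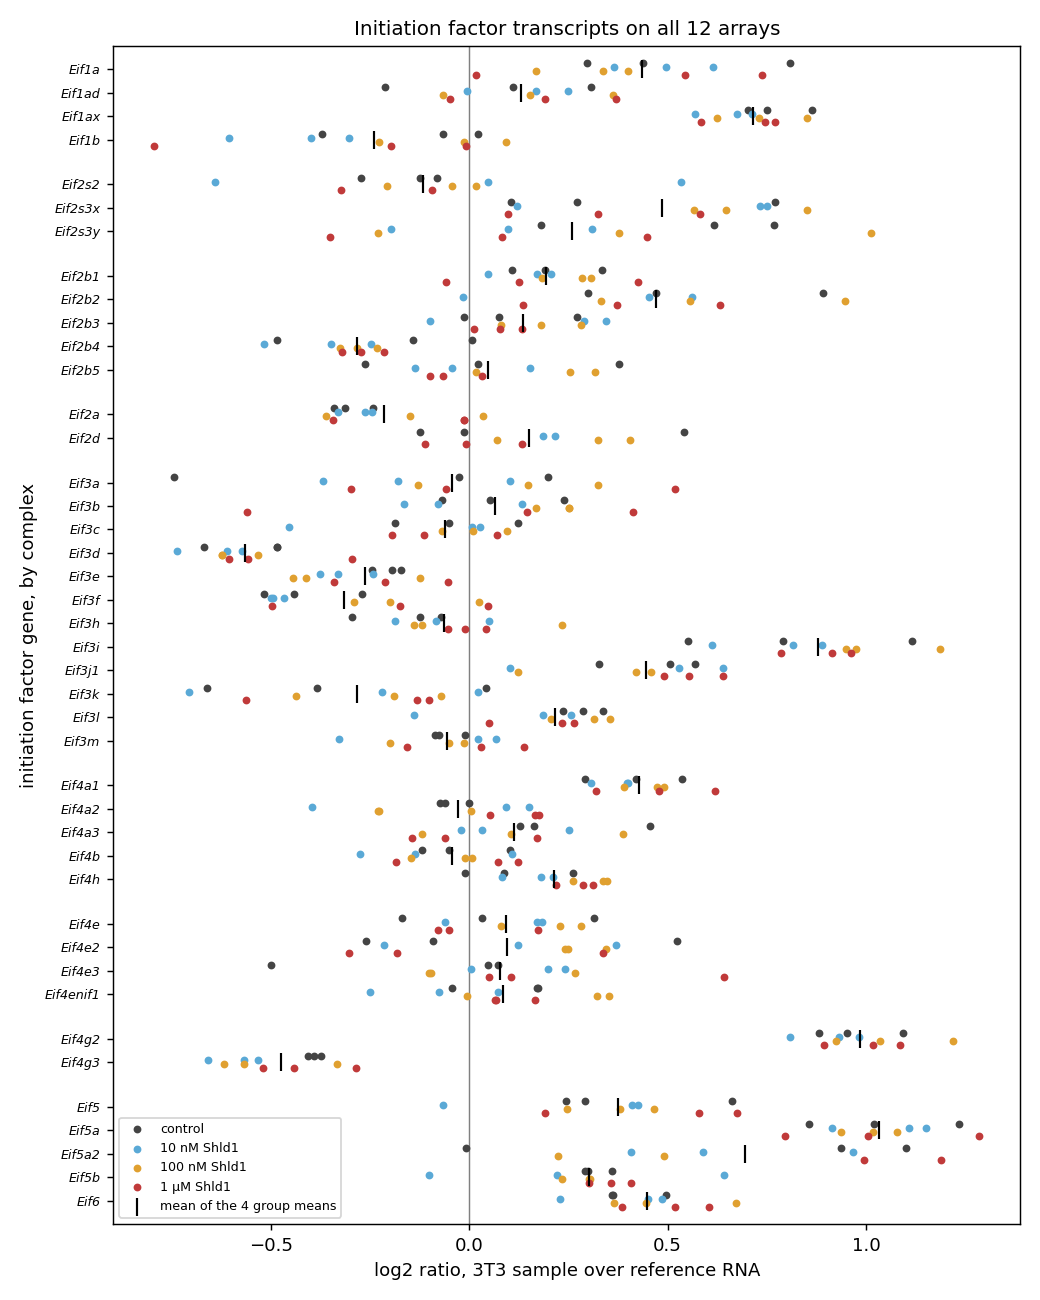
The log2 ratio of sample over reference RNA (x axis) of each of the 42 initiation factor genes, grouped by complex (y axis), on all 12 arrays. Points are single arrays coloured by group, and black ticks are the mean of the 4 group means. Each dose group overlaps control in nearly all genes, the exceptions being Eif4g3 at 10 nM and Eif3h and Eif4a2 at 1 µM. Eif5a and Eif4g2 lie at the right and Eif3d and Eif4g3 at the left.

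Eif5a had the highest mean over its probes, a place that 1 of its probes carried. Its protein, which carries the amino acid hypusine, helps the ribosome past difficult peptide bonds and acts mainly in elongation and termination. It read 1.24, 1.02 and 0.86 in control, 1.15, 1.11 and 0.91 at 10 nM, 1.08, 0.94 and 1.02 at 100 nM and 1.29, 1.01 and 0.80 at 1 µM. All 12 arrays lay above 0, and the control mean of 1.04 ± 0.19 (SD, n = 3) was 2.05-fold over the reference (95% interval 1.73 to 2.44, adjusted p = 3.88e-05 by limma). Its paralog Eif5a2 was at 0.68 in control (adjusted p = 0.0204). Eif5, which activates GTP hydrolysis by eIF2, was at 0.40 (adjusted p = 0.0307) and Eif6, which keeps the large subunit from joining early, at 0.41 (adjusted p = 0.0063). The joining factor Eif5b was at 0.32, with an adjusted p of 0.05 and no call.

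The scaffold family split on opposite sides of the reference. Eif4g2, an eIF4G relative without the part that binds eIF4E, read 1.09, 0.95 and 0.88 in control, 0.93, 0.98 and 0.81 at 10 nM, 1.03, 0.93 and 1.22 at 100 nM and 1.02, 1.09 and 0.90 at 1 µM. Its control mean was 0.98 ± 0.11 (SD, n = 3), 1.97-fold over the reference (adjusted p = 2.02e-05). Eif4g3 was below 0 on all 12 arrays, with a control mean of -0.39 ± 0.02 (SD, n = 3, adjusted p = 0.0054), a call lost when the fit held the control arrays alone (adjusted p = 0.0501). The ranges of these paralogs over the 12 arrays did not meet.

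The eIF3 genes lay on both sides of the reference, with 4 of 12 above the reference and 8 below in control and a median of -0.11. Of all 14523 genes, 7637 were above it and 6886 below. Eif3a, Eif3c and Eif3m counted as below, though 1 probe of each stood above 0 in control, at 0.265, 0.355 and 0.191. Their other probes stood at -0.19, -0.43 and -0.31. Eif3b and Eif3j1 counted as above, but each also had a probe with values on all 12 arrays below 0, at -0.15 and -0.58. Eif3i, a propeller-shaped subunit, read 1.12, 0.55 and 0.79 in control, 0.82, 0.89 and 0.61 at 10 nM, 0.95, 0.98 and 1.19 at 100 nM and 0.96, 0.91 and 0.79 at 1 µM. It was 1.76-fold over the reference in control (0.82 ± 0.28, SD, n = 3, adjusted p = 0.000212). The loosely held Eif3j1 was at 0.47 (adjusted p = 0.0076) and Eif3l at 0.29 (adjusted p = 0.0359).

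Eif3d, the subunit that can itself bind the cap of some mRNAs, was the lowest of the factors. It read -0.67, -0.48 and -0.48 in control, -0.57, -0.74 and -0.61 at 10 nM, -0.62, -0.53 and -0.62 at 100 nM and -0.30, -0.60 and -0.56 at 1 µM. All 12 arrays lay below 0, and the control mean was -0.54 ± 0.11 (SD, n = 3, adjusted p = 0.000826). Eif3f was called lower, with a control mean of -0.41 ± 0.13 (SD, n = 3, adjusted p = 0.0126), but not without control replicate 2 (adjusted p = 0.0604) or 3 (adjusted p = 0.0743), nor in a fit of the control arrays alone (adjusted p = 0.0512). Eif3k read 0.04, -0.66 and -0.38 in control, and was not called (-0.33 ± 0.35, SD, n = 3, adjusted p = 0.119), though without centring it was called (adjusted p = 0.0355). Over the 4 groups together, 4 of the 12 eIF3 genes were called lower and 3 higher, beside 34.4% and 38.6% of all genes.

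Both genes of the scanning factor eIF1A were higher than the reference. Eif1ax read 0.70, 0.75 and 0.86 in control and between 0.57 and 0.85 on the treated arrays, with a control mean of 0.77 ± 0.08 (SD, n = 3), 1.71-fold over the reference (adjusted p = 6.3e-05). Eif1a was at 0.51 in control (adjusted p = 0.0116), and Eif1b, a relative of the start codon factor eIF1, at -0.14 without a call. Of the helicase genes, Eif4a1 was at 0.42 (adjusted p = 0.00381), while Eif4a2 at -0.04 and Eif4a3 at 0.25 were not called. All 4 genes of the cap-binding group, Eif4e, Eif4e2, Eif4e3 and the transporter Eif4enif1, lay between -0.13 and 0.10 in control, and 0 of them were called. Of all genes, 26.5% were called higher in control and 19.6% lower. These gene values hide differences between probes. The 2 probes of Eif4e3 were at 0.33 and -0.58, the latter with an adjusted p of 0.0182 in the limma fit of single probes. With 1 probe per gene, Eif4e3 was called lower. A probe of Eif4e2 left out for a blank value was at 0.32 (adjusted p = 0.0483 in that fit). Those of Eif4e ran from 0.36 to -0.13. Both eIF2 gamma genes were above the reference without a call, Eif2s3x at 0.38 (adjusted p = 0.0682) and Eif2s3y at 0.52 (adjusted p = 0.0673). Of the eIF2B subunits only Eif2b2 was called, at 0.55 (adjusted p = 0.0154). With 1 probe per gene Eif2b1 was also called higher. Without centring Eif2b4 was called lower and Eif2b2 was not called. Eif2a, an alternative carrier of initiator tRNA, was lower at -0.30 (adjusted p = 0.0359), a call that leaving out any of the control arrays ended.

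The order of the factors in control was only partly resolved. Eif5a, Eif4g2, Eif3i and Eif1ax followed each other at 1.04, 0.98, 0.82 and 0.77, with SEs of 0.11, 0.10, 0.12 and 0.09, and neighbouring 95% intervals overlapped. At the other end Eif3d at -0.54, Eif3f at -0.41 and Eif4g3 at -0.39 were followed by Eif3k at -0.33, with SEs of 0.10, 0.11, 0.09 and 0.17, and here too the intervals overlapped. The intervals of the first 4 and of these 4 did not meet, but both sets were picked from the ends of this same order. Their separation is therefore no test of the order, and the SEs leave out differences between probes of a gene.

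How far a gene stands from the reference depended on which of its probes was read. Among 24 factors with several measured probes, the widest gap between the 12-array means of 2 probes of a gene had a median of 0.40, was over 0.5 for 10 genes and over 1 for 4, and for 13 genes the probes lay on opposite sides of 0. Of Eif5a, 1 probe averaged 2.41, another 0.86 and the other -0.17, so its place at the top rests on 1 probe. With the median of the probes as its value, Eif5a stood at 0.78 in control, below Eif4g2 at 0.98, and with 1 probe per gene it stood at 2.50 and Eif4g2 at 0.50. It was called higher in each case, but no alternative took the probe at -0.17 alone as the value of Eif5a. Eif3j1 ranged from 1.27 to -0.37 over its probes. Both probes of Eif4g2 were above 0 on all 12 arrays, at 1.50 and 0.48.

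The probes of Eif3c, a core scaffold subunit of eIF3, averaged 0.50 and -0.62, the former above 0 and the latter below 0 on all 12 arrays, and the averaged gene stood at -0.06. Such a mean near 0 does not show that the transcript was at the level of the reference. Which stretch of the transcript each probe reads, and whether near-identical copies such as Eif1a and Eif1ax or Eif2s3x and Eif2s3y share signal, was not tested, since probe sequences were not analysed here.

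**Figure D3:**
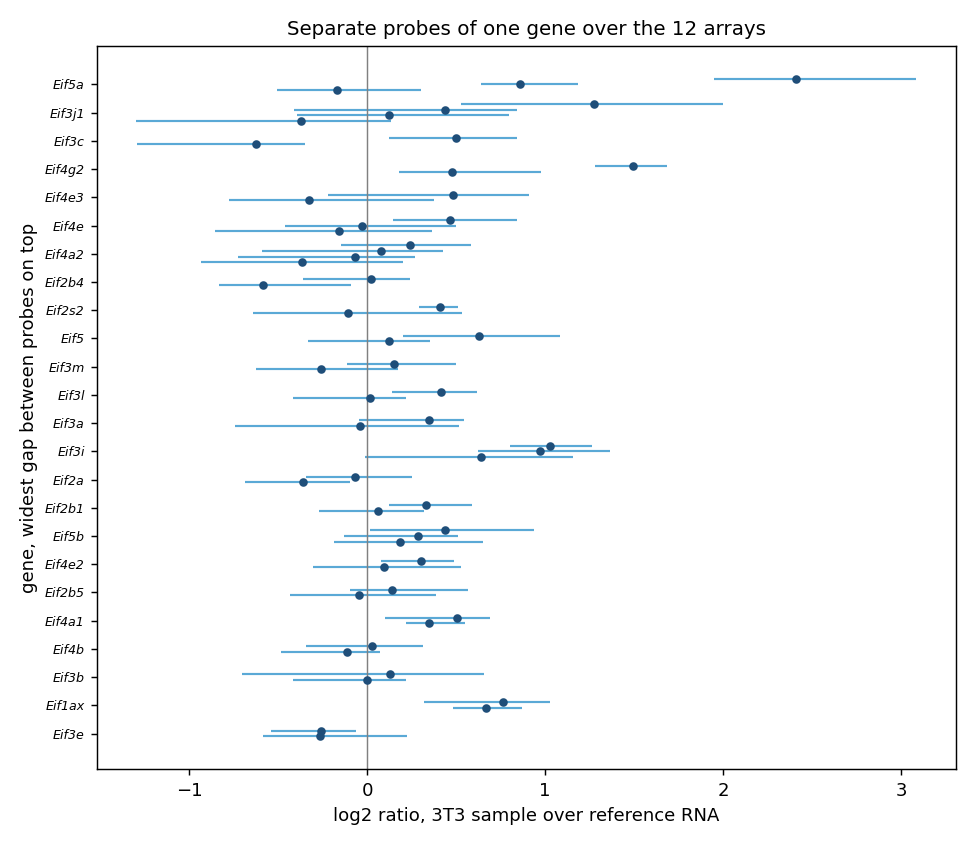
Separate probes of the 24 initiation factor genes with several measured probes (y axis, widest gap on top) on the log2 ratio of sample over reference RNA (x axis). Points are the mean of a probe over the 12 arrays, and lines run from its lowest to its highest array. The probes of Eif5a spread from -0.17 to 2.41, those of Eif3c sit on both sides of 0, and the probes of Eif3e lie together.

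The regulators of initiation, a list of 31 genes with 29 measured, also held 0 called genes at any dose. Their median change was 0.02 at 1 µM, 0.06 at 100 nM and -0.02 at 10 nM. At an unadjusted p under 0.05, 1 of 29 passed at 1 µM, beside 4.26% of all genes. It was Mknk1, a kinase that phosphorylates eIF4E, with a change of -0.52 (unadjusted p = 0.0446, adjusted p = 0.999), and it also passed for the mean of the doses (unadjusted p = 0.0448) and the trend (unadjusted p = 0.0417). At 100 nM, 1 of 29 passed, beside 3.02% of all genes, and it was Impact, an inhibitor of eIF2 kinase activation, with a change of 0.45 (unadjusted p = 0.0447, adjusted p = 1). Against the reference in control 8 of 29 were higher, beside 26.5% of all genes, and 4 lower, beside 19.6%. Eif2ak4, the eIF2 kinase that senses amino acid shortage, was at 1.24 (adjusted p = 0.000108) and the phosphatase subunit Ppp1r15b, which returns eIF2 to its active form, at 1.04. The stress-induced paralog of that subunit, Ppp1r15a, was at -0.79 and Ddit3, a transcription factor of the same response, at -0.90, both called lower. Of the binding proteins of eIF4E, Eif4ebp2 was higher at 0.74 and Eif4ebp3 lower at -1.03, while Eif4ebp1 at -0.22 was not called.

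Elongation and termination factors, 12 measured of 14 listed, had 0 called genes at any dose and a median change of -0.10 at 1 µM. At an unadjusted p under 0.05, 1 passed at 10 nM, the release factor gene Gspt2 with a change of -0.60 (unadjusted p = 0.0287, adjusted p = 1), beside 2.48% of all genes. In control 4 of 12 were higher than the reference, beside 26.5% of all genes, and 1 lower, beside 19.6%. The highest were subunits of the complex that recharges the elongation factor eEF1A, Eef1g at 1.13 and Eef1b2 at 0.69, and the lowest was Dohh, the enzyme that completes the hypusine of eIF5A, at -0.59 (adjusted p = 0.007). By the mean of its probes Eif5a thus lay on the other side of the reference from Dohh, though 1 probe of Eif5a averaged -0.17 over the 12 arrays. The 8 measured mitochondrial translation factors had 0 calls at any dose, and in control Mtif3, a mitochondrial initiation factor, was higher at 0.53 and the elongation factor Tufm lower at -0.58. Of 5 genes listed to compare with the sex-linked copies of eIF2 gamma, only Usp9y was measured, at 0.01 in control.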

How the data were processed

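The values used are the log2 ratios deposited by the authors, 1 per probe and array. Per the labels' protocols, 3T3 RNA was labelled with Cy5 and reference RNA with Cy3, and an Axon scanner was used. The scale (base 2 assumed), the centring and the direction are not stated for these values, and no source gives the authors' normalization or spot filters. Each array was centred on its median over all probes. Probes measured on all 12 arrays were averaged per gene, and a gene without one took the probe with most values. Of 38784 probes, 26173 had 1 symbol, 28 several and 12583 none. Genes with at least 2 values in every group (14523) were fitted on all 12 arrays with limma 3.58.1 in R 4.3.3 (lmFit, eBayes), with group means as design and Benjamini-Hochberg adjustment over all genes at 0.05. Figures were drawn with matplotlib 3.10.9. The fit was tested on simulated data. Members, gene lists and the rule for named genes were chosen with earlier results of these data known. That rule took factors called at a dose, the 2 higher and 2 lower with the smallest p at each dose, the 4 highest and 4 lowest against the reference in control, the 3 whose probes differed most, and the paralog sets. Of the other lists it took up to 4 genes with the smallest p at 1 µM or against the reference. The text goes beyond this: Impact and Gspt2 are named for their p at 100 nM and 10 nM. More regulators are named than the rule gives, among them Eif4ebp1, which was not called. Genes named from these lists are thus examples. Intensities were not used here, so signal over background is unknown, and the 3 arrays a group limit the precision. The alternatives are in the closing section.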

Additional observations from a re-analysis of the deposited data

How the results depend on the processing

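The count of factors called at a dose was 0 under every alternative run: other centring, scaling, normalization, filters, probe summaries, fits and left-out arrays. No result changed direction among those that had been called. In control against the reference, 16 factors were called, beside 3850 genes higher and 2845 lower over all 14523. With 1 array left out between 10 and 18 factors were called. The lowest count came without control replicate 2, where 2979 genes were higher and 1961 lower. The highest came without 10 nM replicate 3, with 3902 and 2896. The median over factors moved from 0.09 to -0.07 without centring, which shifts all genes alike. The fits with a replicate block called 0 factors at each dose, and against the reference in control 15 with a fixed block and 17 with a random one. Over all genes the fixed block called 3911 higher and 2944 lower, and the random one 3860 and 2859. The call lost under the fixed block was that of Eif2a. Samples sharing a replicate number deviated together in part only (r from -0.11 to 0.28 over 18 pairs, 10 of them over 0.1, among them all 6 pairs of replicate 1), so the numbers were not taken as pairs. The median of a gene's probes as its value, chosen after seeing the data, called 16 factors, beside 3763 genes higher and 2810 lower. Dim probes could not be told from bright ones in these ratios.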
